A study of Mus musculus with 7 samples.

Results

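The genes described here encode the proteins of the cytosolic ribosome. They were chosen by symbol as the protein-coding mouse genes named Rpl or Rps followed by a digit, with Rplp0, Rplp1, Rplp2 and Rpsa, leaving out the Rps6k kinases and the pseudogenes. The GENCODE annotation of GRCm38 holds 86 such genes: 43 proteins of the large subunit, 31 of the small subunit, the 3 proteins of the stalk, 8 paralogs, and Rps19bp1, which fits the symbol pattern but is not itself a ribosomal protein. Of 13764 genes matched to a transcript start or end in the deposited files, 80 were members, and 6 members (Rpl10l, Rpl13, Rpl36al, Rpl39l, Rpl3l and Rps27rt) matched none. Transcripts without introns, and starts or ends shared between genes, could not be matched, so these 6 are not shown to be unexpressed.

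The cells were wild-type mouse embryonic stem cells of the line B6G-2, taken through embryoid bodies for 6 days and grown as neural progenitors in RHB-A with bFGF and EGF. At day 14 the progenitors were moved to BrainPhys with B27 and exposed for 1 day. There was 1 RNA-seq library of total RNA for each of chlorpyrifos, DDT, rotenone, carbaryl, deltamethrin, imidacloprid and control, so no difference below has a replicate check and none was tested. Neither a dose nor a vehicle is given in the labels. The tissue label reads brain, but every culture came from the 1 stem cell line.

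A mammalian ribosome carries a copy of nearly every one of these proteins, and cells make them in matched amounts. Their mRNAs share a run of C and T bases at the 5′ end, the TOP element, through which mTORC1 and the RNA-binding protein LARP1 set how strongly they are translated. The genes are among the most highly expressed in dividing cells, many host small nucleolar RNAs (snoRNAs) in their introns, and the genome holds many processed pseudogenes of them. Some members also act away from the ribosome: Rpl5, Rpl11 and Rpl23 can bind MDM2 and so raise p53.

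The sequence at the listed starts shows where such a run is present and where it is not. The windows below are of 30 bases with the listed start at base 16, written 5′ to 3′ on the gene's strand from the RefSeq promoters of GRCm38.p6, and capitals mark the longest run of at least 4 C or T bases at the start. Each is the start that held most of its gene's FPKM (a fragment level scaled to transcript length and library size), and for Rpl34 the next most used start is added. The first 6 were picked to show the run, and Rpl18, Rpl19, Rpl34 and Rpl23 because their levels differed most between libraries.
Rpl35, chr2:39005108-39005137, minus strand: CCTTTCCTCTTTCTCTCgaaccaggctgct
Rpl4, chr9:64173360-64173389, plus strand: agtgacaagTCTTTCCTTTTCCTgtgggag
Rpl31, chr1:39367827-39367856, plus strand: gccacaCCTCTTCCTCCTCgcctccccgtg
Rpl37a, chr1:72711275-72711304, plus strand: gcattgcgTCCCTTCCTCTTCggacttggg
Rps24, chr14:24490666-24490695, plus strand: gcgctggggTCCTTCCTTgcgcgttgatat
Rps12, chr10:23787261-23787290, minus strand: caccggagccaCCTCTTTagtgggaggagt
Rpl18, chr7:45718056-45718085, plus strand: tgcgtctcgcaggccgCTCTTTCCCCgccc
Rpl19, chr11:98026909-98026938, plus strand: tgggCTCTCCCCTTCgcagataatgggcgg
Rpl34, first start, chr3:130730384-130730413, minus strand: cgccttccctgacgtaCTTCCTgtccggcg
Rpl34, second start, chr3:130730323-130730352, minus strand: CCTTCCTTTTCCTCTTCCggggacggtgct
Rpl23, chr11:97782423-97782452, minus strand: gaggtccggtcacgtggctgagtgggcggg

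In the first 10 of these windows a C and T run lies at or next to the listed start, and in Rpl23 there is none. Over the members outside chromosome 18, 47 had their most used start inside a RefSeq promoter window. Of these, 18 (38.3%) had such a run there, beside 31.7% of 6583 genes. The same rule for a run was used for these genes, but with chromosome 18 kept and starts shared between genes left out. A run at the listed start is therefore common among all genes, and 29 of the 47 members had none. The listed starts are those of the annotation (183 of 184 listed member starts lie on an annotated transcript start), so they are not measured 5′ ends. Around the RefSeq start itself, from 15 bases before to 15 bases after, the word CTTTCC, the word CTTCCT or the word CTCTTT, which can overlap and were counted once per promoter, stood on the gene's strand in 20 of 78 member promoters (25.6%, 66 symbols), against 4.54% of all 32851 promoters. On the opposite strand the shares were 1.28% and 4.20%. The word CCGGAAG, the core of the sites bound by ETS factors, stood on either strand of the whole promoter of 300 bases in 34.6% of member promoters and 8.86% of all promoters. These matches describe the letters only.

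A gene's level can be summed over its listed transcript starts or over its listed transcript ends. For 54 members the start and end totals, averaged over the 7 libraries, agreed within 0.3 on the log2 scale at a mean of at least 1 FPKM, and the mean of both totals was the gene's value. They were 29 of the large subunit, 20 of the small subunit, 2 stalk proteins and 3 paralogs. In some of them, such as Rplp1 and Rps15, the start and end totals were identical in every library. Start and end totals are therefore not independent measurements, and their agreement was a condition for entry. For 12 members the totals disagreed, for 13 the end total was under 5% of the start total, and Rps19bp1 lay below the minimum. These are given by their totals without a fold. Starts or ends shared with another gene were left out of the totals. For Rps10 this left out its most used start, at 145 FPKM on average. How far the disagreement of totals came from such omissions was not tested. The identifiers in the deposited files placed 15 members mostly under another gene, in 13 cases a snoRNA or other small RNA gene lying inside the member, such as Snora70 for Rpl10, so the exon boundaries were used to find them.

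The progenitor markers summed to 1212 to 1482 FPKM over the libraries, most of it Vim, while Sox2 and Sox1 matched no start or end event. Transcripts without introns, and events shared between genes, could not be matched, so a marker without an event may still be expressed. Neuronal markers summed to 185 to 227 FPKM with no event for Tubb3, and oligodendrocyte lineage markers to 114 to 175 FPKM, most of it Olig2. Astrocyte markers summed to 117 to 155 FPKM, carried by Slc1a3 and Aldh1l1, while Gfap, Aqp4 and S100b averaged 0.346, 0.185 and 0.101 FPKM. Pluripotency markers summed to at most 0.637 FPKM. The annotation names 300 pseudogenes of the members, and how far reads from these were shared with their parent genes was not tested. In bulk cultures fewer cells and less RNA per cell cannot be told apart.

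Ribosomal protein mRNAs made up a large and even share of these transcriptomes. Summed over starts, the members stood at 35626 FPKM with chlorpyrifos, 35634 with DDT, 35229 with rotenone, 34134 with carbaryl, 32760 with deltamethrin and 33305 with imidacloprid, against 32941 in control. That was 12.3%, 12.3%, 12.3%, 11.9%, 11.6% and 11.5% of all start FPKM in the same order, against 11.4% in control. The first 3 libraries were 8.15%, 8.18% and 6.95% above control and deltamethrin was 0.551% below it.

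Summed over ends, the members stood at 30384 FPKM with chlorpyrifos, 30320 with DDT, 30785 with rotenone, 28317 with carbaryl, 28567 with deltamethrin and 28602 with imidacloprid, against 27948 in control. The order of the libraries differed between the ends, but chlorpyrifos, DDT and rotenone were the 3 highest in both. The start and end sums are not independent of each other. Taken by the deposited identifier instead, the start sums for the same libraries were 30142, 30059, 29778, 28985, 27821 and 28627 FPKM, against 27953 in control, and the end sums were 25157, 24933, 25271, 24005, 23325 and 23804 FPKM, against 23290 in control. Over the 54 members whose ends agree, the sums were 26960, 27037, 26631, 25427, 25224 and 25470 FPKM, against 25350 in control.

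**Figure D1:**
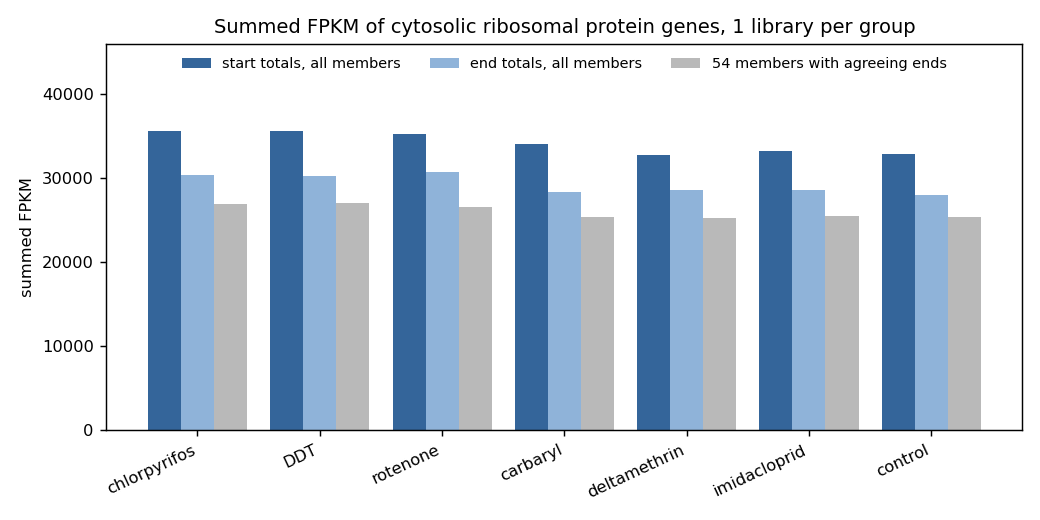
Summed FPKM (vertical axis from 0) of ribosomal protein genes in each library, as start totals of all members, end totals of all members, and the values of the 54 members with agreeing ends. Start sums run from 32760 FPKM with deltamethrin to 35634 FPKM with DDT, with control at 32941 FPKM.

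Large-subunit members with agreeing ends summed to 13121, 12959, 12692, 12329, 12200 and 12072 FPKM from chlorpyrifos to imidacloprid, against 12215 in control. Small-subunit members summed to 11468, 11657, 11560, 10845, 10789 and 11043 FPKM, against 10834 in control. The sum of the large subunit was 1.09 times that of the small subunit with imidacloprid, the lowest ratio of the 7 libraries, against 1.13 times in control. With rotenone the ratio was 1.10. The value of Rpl19 was low with imidacloprid but not with rotenone, and its part in the ratio was not tested.

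Gene by gene, small positive differences prevailed with chlorpyrifos, DDT and rotenone. With chlorpyrifos 43 of the 54 members were above control, where 50% of the 6168 genes with agreeing ends were. With DDT 45 were above control (52.3% of all genes), and with rotenone 42 (50.8%). With carbaryl 26 were above control (50% of all genes), with deltamethrin 27 (50.6%) and with imidacloprid 32 (53.3%). The 6 comparisons share the control library, so they are not independent of each other.

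The differences themselves were small. On the log2(FPKM + 1) scale, insecticide minus control, the median member stood at 0.06 with chlorpyrifos, 0.09 with DDT, 0.06 with rotenone, -0.0013 with carbaryl, -0.0044 with deltamethrin and 0.03 with imidacloprid. The medians of all 6168 genes lay between 0.00027 and 0.012. In the small subunit, 18 of 20 members were above control with chlorpyrifos, 18 with DDT and 17 with rotenone. In the large subunit the counts were 23, 25 and 23 of 29.

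Measured against each gene's own mean over the 7 libraries, with no reference to control, the median member stood at 0.04 with chlorpyrifos, 0.06 with DDT and 0.04 with rotenone, and at -0.03 with carbaryl, -0.05 with deltamethrin, -0.0085 with imidacloprid and -0.03 in control. Above their own mean were 38, 44, 39, 18, 13 and 23 of the 54 members in the exposed libraries, against 18 in control. Of all genes, 52.6%, 55.1%, 53.2%, 52.0%, 52.4% and 56.2% were above their own mean in the exposed libraries, against 51.8% in control. Carbaryl and deltamethrin thus sat with control, and DDT was farthest above it. The matching medians of all genes lay between 0.0045 and 0.018.

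Few members passed a fixed fold. At 2-fold or more there were none with chlorpyrifos (1.82% of all genes), DDT (1.83%), rotenone (1.72%) or deltamethrin (1.83%). With carbaryl 1 member, Rpl23, was past it (2.19% of all genes), and with imidacloprid 1 member, Rpl19 (1.83%). At 1.5-fold or more the counts were 2 with chlorpyrifos (5.93% of all genes), 1 with DDT (6.74%), 0 with rotenone (6.55%), 3 with carbaryl (6.29%), 0 with deltamethrin (6.29%) and 2 with imidacloprid (5.97%). A single passing member of 54 is 1.85%, which is near the share of all genes.

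**Figure D2:**
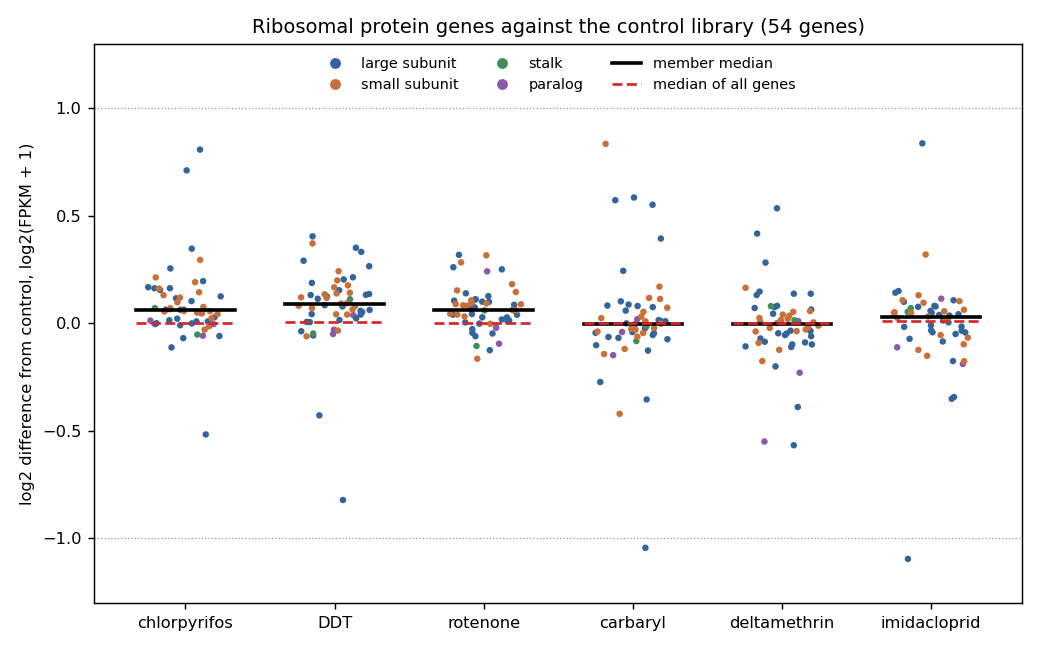
Difference from control on the log2(FPKM + 1) scale (vertical axis) for each of the 54 members in each insecticide library, coloured by class, with the member median as a black line and the median of all genes as a dashed red line. The members gather near their medians of 0.06, 0.09 and 0.06 with chlorpyrifos, DDT and rotenone, and the 2 points beyond -1 (dotted line) are Rpl23 with carbaryl and Rpl19 with imidacloprid.

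Rpl23 (chromosome 11, 97777527 to 97782437, ENSMUSG00000071415) is a large-subunit protein and one of the MDM2 binders. It stood at 467 FPKM with chlorpyrifos, 472 with DDT, 486 with rotenone, 226 with carbaryl, 433 with deltamethrin and 462 with imidacloprid, against 467 in control. Only the carbaryl library was apart (log2 difference -1.04). Its start and end totals were both 226 FPKM, which is not a separate check, since the ends had to agree on average. In the carbaryl library 9.10% of the start FPKM came from a second start further downstream, at 20.5 FPKM against 2.28 FPKM in control.

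The other MDM2 binders did not share the low value. Rpl5 stood at 290, 305, 304, 293, 265 and 287 FPKM from chlorpyrifos to imidacloprid, against 304 in control. For Rpl11 the ends disagreed, and its larger, end total was 410, 416, 392, 376, 374 and 373 FPKM in the exposed libraries, against 397 in control. For Rpl5 the carbaryl value lay within the range of the other libraries, and for Rpl11 2 exposed libraries were lower.

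Rpl19 (chromosome 11, 98026710 to 98030492, ENSMUSG00000017404), a large-subunit protein often used to normalize expression, had 756, 792, 775, 723 and 729 FPKM in the first 5 exposed libraries and 338 FPKM with imidacloprid, against 723 in control. The imidacloprid difference was -1.10 on the log2 scale, and there the 2 ends disagreed. The start total was 140 FPKM and the end total 536 FPKM, against 723 FPKM for both in control. From the end total alone the log2 difference was -0.43, and from the start total alone -2.36. The missing FPKM was at the main start printed above, which stood at 114 FPKM with imidacloprid, against 690.5 FPKM in control.

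Rpl18 (chromosome 7, 45715457 to 45720836, ENSMUSG00000059070), also of the large subunit, was low in 2 libraries. It had 473 FPKM with chlorpyrifos, 268 with DDT, 460 with rotenone, 442 with carbaryl, 320 with deltamethrin and 487 with imidacloprid, against 474 in control. The log2 differences of the low libraries were -0.82 with DDT and -0.57 with deltamethrin. The start and end totals agreed in both, which again is not a separate check. With deltamethrin the main start held 65.5% of the start FPKM, and 37.1 FPKM came from a start upstream that no other library listed above 0.

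Rpl34 and Rpl27 were lowest in control. Rpl34 (chromosome 3, 130726831 to 130730398, ENSMUSG00000062006), a large-subunit protein, stood at 385, 280, 224, 330, 293 and 393 FPKM from chlorpyrifos to imidacloprid, against 219 in control. Its log2 differences were 0.81 with chlorpyrifos, 0.59 with carbaryl and 0.84 with imidacloprid, while rotenone (0.03) sat beside control. Rpl27 (chromosome 11, 101442298 to 101445529, ENSMUSG00000063316) stood at 498, 403, 308, 452, 441 and 307 FPKM, against 304 in control. Chlorpyrifos was highest (0.71), carbaryl and deltamethrin followed (0.57 and 0.54), and rotenone and imidacloprid were at the level of control.

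The libraries also differed in which Rpl34 start carried the FPKM. The second start printed above, with the run of 18 C and T bases, stood at 166 FPKM with chlorpyrifos, 106 with DDT, 0.0204 with rotenone, 136 with carbaryl, 143 with deltamethrin and 116 with imidacloprid, against 94.8 in control. The first start stood at 196, 139, 187, 134, 134 and 229 FPKM, against 104 in control. The rotenone library was thus the single library with almost nothing at the second start, although its total was close to that of control. Shifts between listed starts were not counted over all members or genes, and other members had them too. A start of Rpl10 held 89.7% of its start FPKM in control and 1.37% with DDT. A start of Rps28 held 80.3% with DDT and 11.5% with imidacloprid.

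Rps6 (chromosome 4, 86854660 to 86857412, ENSMUSG00000028495) is the small-subunit protein phosphorylated by the S6 kinases downstream of mTORC1. It had 231 FPKM with chlorpyrifos, 244 with DDT, 194 with rotenone, 336 with carbaryl, 196 with deltamethrin and 195 with imidacloprid, against 188 in control. Carbaryl was highest, with a log2 difference of 0.84. The other 5 exposed libraries lay above control by 0.04 to 0.37.

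**Figure D3:**
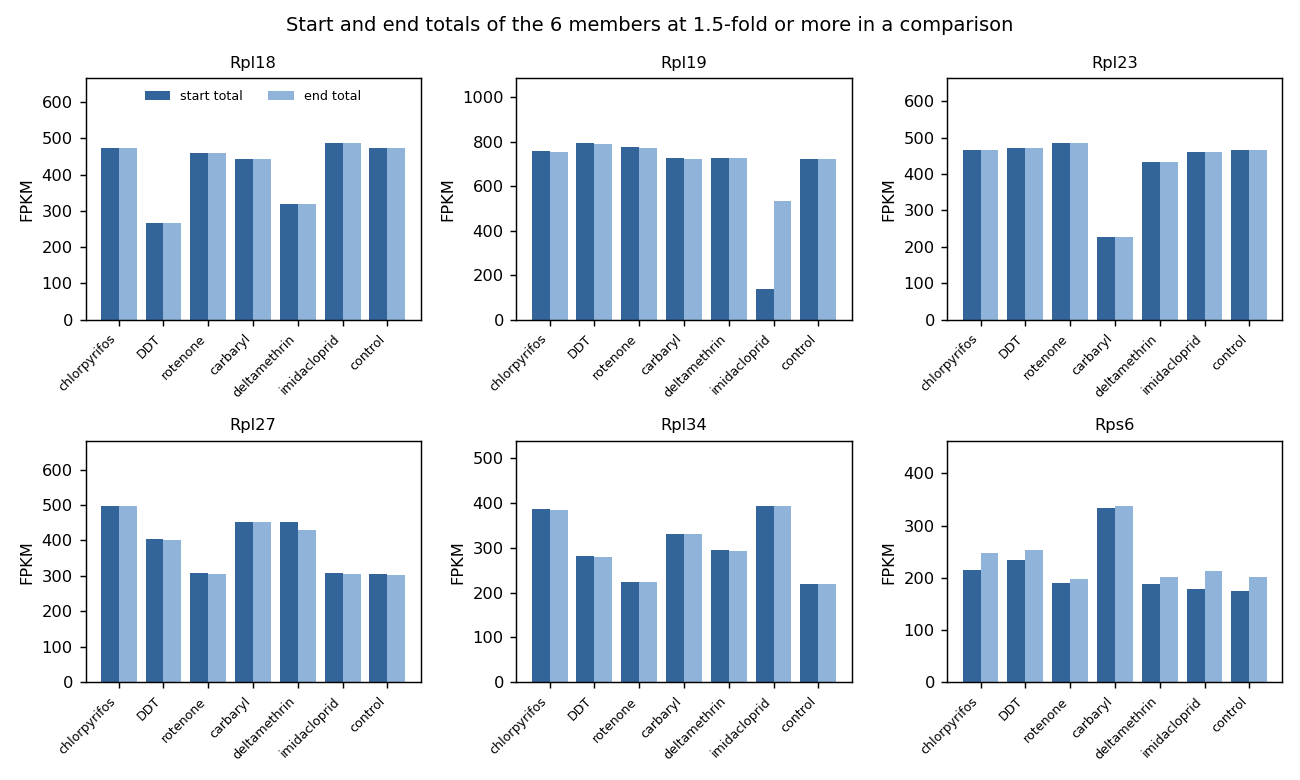
Start total (dark) and end total (light), in FPKM on an axis from 0, of the 6 members at 1.5-fold or more in a comparison, for each of the 7 libraries. The totals lie close together, with Rps6 a little higher at its end, except for Rpl19 with imidacloprid, which has 140 FPKM at starts and 536 FPKM at ends.

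Other named members varied less. Rpl7a, a large-subunit protein whose introns hold snoRNAs, was above all exposed libraries in control, with 258, 274, 354, 289, 282 and 290 FPKM from chlorpyrifos to imidacloprid, against 369 in control. The small-subunit protein Rps14 was lowest with carbaryl, at 413 FPKM (log2 difference -0.42), and its other exposed libraries had 540 to 674 FPKM, against 553 in control. With carbaryl its usual main start stood at 3.72 FPKM, against 475 in control. A start upstream held 357 FPKM there, or 83.1% of the start FPKM, and was listed at 0 in every other library. Rps24, a small-subunit protein with alternative short exons, was lowest in control, with 511, 547, 576, 521, 519 and 577 FPKM in the exposed libraries, against 462 in control. Its start-only differences were smaller than those from its ends, at 0.04 and 0.26 with chlorpyrifos.

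Rpl9 of the large subunit was highest with carbaryl, at 235 FPKM (log2 difference 0.40), and lowest with deltamethrin at 167 FPKM, against 179 FPKM in control. Rpl22, which binds RNA outside the ribosome as well, lay between 117 and 143 FPKM in the exposed libraries, against 119 in control. The log2 difference was largest with rotenone, at 0.26. Control was below all 6 exposed libraries in 11 of the 54 members (20.4%), where this held for 14.0% of all genes, and above all 6 in 3 members (5.56%), Rpl7a, Rps27a and Rps27l, where it held for 12.8% of all genes.

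Several large-subunit members had 1 library apart. Rpl30 was highest with carbaryl, at 293 FPKM (log2 difference 0.55), and had 177 to 230 FPKM in the other exposed libraries, against 200 in control. Rpl10, among the last proteins to join the large subunit, was lowest with imidacloprid, at 180 FPKM (-0.34), and had 218 to 256 FPKM in the other exposed libraries, against 228 in control. Rpl3, which lies close to the peptidyl transferase centre, stood at 548, 526, 570, 567, 582 and 473 FPKM, against 478 in control, so 5 exposed libraries were above control and imidacloprid was beside it.

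The steadiest member was Rpl12. This protein at the base of the stalk had 305, 316, 308, 308, 308 and 315 FPKM in the exposed libraries, against 292 in control, which was the lowest of the 7. Its SD over the libraries was 0.037 on the log2 scale.

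Members that host a snoRNA gene could be set beside those that do not, since 30 of the 86 do. Among the 19 hosts with agreeing ends, 14, 15, 13, 7, 11 and 11 were above control from chlorpyrifos to imidacloprid, with medians of 0.04, 0.08, 0.04, -0.04, 0.02 and 0.04. Among the 35 other members the counts were 29, 30, 29, 19, 16 and 21, with medians of 0.07, 0.09, 0.07, 0.01, -0.02 and 0.03. The difference between hosts and the others was not tested.

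Levels differed far more between members than between libraries. Among the 54 members with agreeing ends, the stalk protein Rplp1 was the highest, at 1716, 1765, 1702, 1617, 1650 and 1715 FPKM in the exposed libraries, against 1632 in control. Next came Rpl8 with a mean of 1054 FPKM, Rps15 with 995, Rpl41 with 990 and Rpl32 with 885. The ranges of Rpl8, Rps15 and Rpl41 over the 7 libraries overlapped each other, and that of Rpl32 overlapped that of Rpl41. Within libraries, Rpl8 was above Rps15 in 7 of 7 and Rpl41 above Rpl32 in 6 of 7, while Rps15 was above Rpl41 in 3 of 7. Rpl41, which encodes the smallest ribosomal protein, had 1126 FPKM with chlorpyrifos and 1114 with DDT, 921 to 980 in the other exposed libraries, against 885 in control.

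At the low end of the same 54 were the paralog Rpl7l1 with a mean of 45.1 FPKM and the large-subunit protein Rpl35a with 51.3 FPKM, followed by Rpl22 with 129 and its paralog Rpl22l1 with 155 FPKM. The stalk partner Rplp2 stood at 185 FPKM on average, well under Rplp1, although both proteins bind the stalk as dimers. Rplp2 lay between 174 and 199 FPKM in the exposed libraries, against 188 in control. The third stalk gene, Rplp0, had disagreeing ends, with start totals of 1019, 1032, 897, 974, 980 and 1031 FPKM in the exposed libraries, against 816 in control.

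Paralogs were measured for 3 of 8. Rps27l, a p53 target in mammalian cells, stood at 278, 269, 275, 271, 190 and 258 FPKM from chlorpyrifos to imidacloprid, against 279 in control, so deltamethrin alone was low (log2 difference -0.55). Rpl22l1 was highest with rotenone, at 185 FPKM, and had 137 to 161 FPKM in the other exposed libraries, against 156 in control. Rpl7l1 had 39.0 to 49.8 FPKM in the exposed libraries, against 45.9 in control. Fau, which encodes a ribosomal protein fused to a ubiquitin-like protein, had a larger total of 258 to 341 FPKM in the exposed libraries, against 262 FPKM in control, without agreeing ends.

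**Figure D4:**
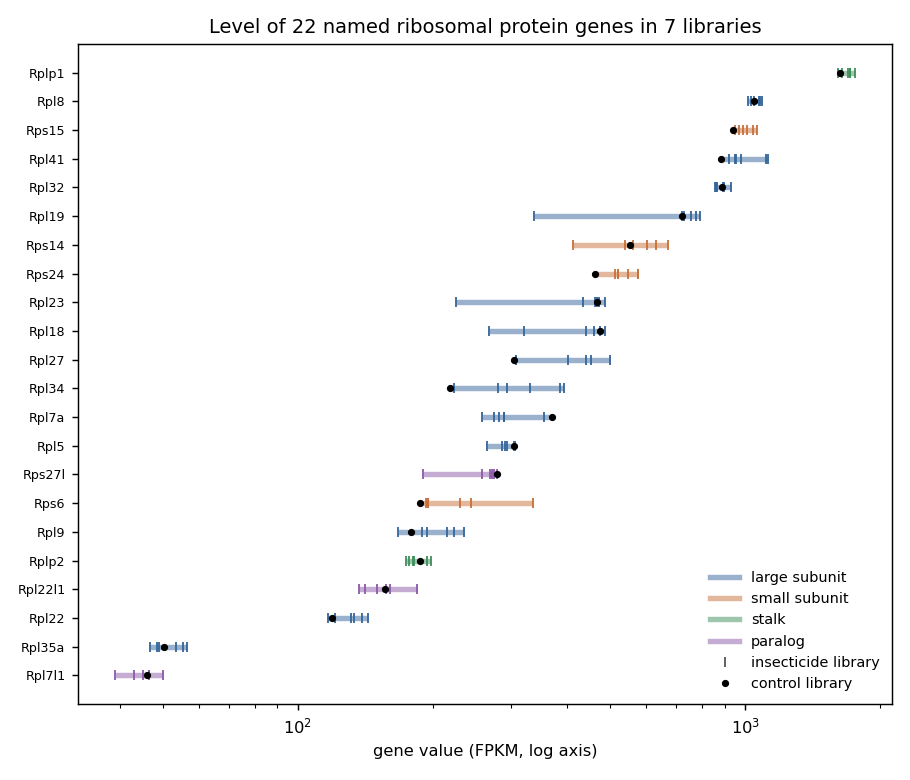
Value of each of the 22 members named by rule (FPKM, logarithmic axis) with a bar over the range of the 7 libraries, ticks for the insecticide libraries and a dot for control, coloured by class. Members run from Rpl7l1 at a mean of 45.1 FPKM to Rplp1 at 1685 FPKM, and the longer bars include those of Rpl19, Rpl23, Rpl18, Rpl27, Rpl34 and Rps6.

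Over the 7 libraries the members were steady. The SD of log2(FPKM + 1) over the libraries had a median of 0.076 for the 54 members and 0.13 for all 6168 genes. For the 52 members of at least 100 FPKM it was 0.073, beside 0.082 for the 227 other genes of that level. The range reached 2-fold in 2 members (3.70%), in 9.55% of all genes and in 7.93% of the other genes of at least 100 FPKM. The median SD was 0.063 for the small subunit and 0.10 for the large subunit, which holds 5 of the 6 members at 1.5-fold or more.

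Of the 25 members above the minimum whose ends did not agree, 4 had a range of 2-fold or more in the larger total (16%), where 33.0% of the 4577 genes without agreeing ends did. The 4577 genes start at a mean of 1 FPKM and were not matched to the members in level. Control was below all 6 exposed libraries in 8 of the 25 (32%, beside 13.9% of those genes) and above all 6 in 0 (14.5% of those genes). Their larger totals reached from 34.0 FPKM on average for Rpl24 to 964 FPKM for Rplp0. The Rpl24 total leaves out its most used start, at 392 FPKM on average, because that start also matched Gm28037. It therefore does not show Rpl24 to be low. Rpsa, the laminin-binding protein of the small subunit, had start totals of 596, 590, 605, 607, 559 and 602 FPKM, against 541 in control. Rps18 of the small subunit had start totals of 941, 951, 869, 890, 743 and 904 FPKM, against 670 in control. Rpl6 of the large subunit had start totals of 554 to 644 FPKM in the exposed libraries, against 421 in control, and end totals of 0.218 to 5.82 FPKM, against 176 in control.

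The highest library of these 25 was chlorpyrifos for 5, DDT for 8, rotenone for 5, carbaryl for 5 and deltamethrin for 2. How often each library was highest among all genes without agreeing ends was not counted. Carbaryl was highest for Rpl39 and Rpl7, among others. Rpl39 of the large subunit had start totals of 284, 300, 272, 427, 278 and 268 FPKM, against 277 in control, and its end total matched its start total in every library except carbaryl, where it was 7.70 FPKM, against 277 in control. Rpl7 had start totals of 464, 490, 471, 612, 479 and 423 FPKM, against 486 in control. Chlorpyrifos was highest for Rpl37, with start totals of 350, 252, 239, 234, 237 and 306 FPKM, against 242 in control, and for Rpl13a, with 601, 475, 426, 417, 396 and 416 FPKM, against 444 in control. Rps10 of the small subunit had end totals of 387, 520, 452, 462, 551 and 523 FPKM, against 405 in control.

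Among those that reached 2-fold were Rps4x, Rps15a and Rpl21. Rps4x, the X-linked small-subunit protein, had start totals of 355, 338, 732, 658, 346 and 353 FPKM, against 362 in control. Rotenone and carbaryl were high at its start, but its end totals of 356, 49.7, 733, 44.9, 346 and 111 FPKM, against 25.1 in control, were high with rotenone and low with carbaryl. Rps15a, also of the small subunit, had end totals of 166 FPKM with chlorpyrifos and 162 with rotenone, and 52.3 to 84.8 FPKM in the other exposed libraries, against 52.3 in control.

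The starts of Rps15a changed with these totals. With rotenone 101 FPKM, or 70.1% of its start FPKM, stood at a long first exon (chromosome 7, 118115740 to 118116188), which was at 0.968 FPKM or less in the other exposed libraries, against 0.0177 FPKM in control. With chlorpyrifos 75.4 FPKM, or 74.1%, stood at a different start (118115472 to 118115677), against 2.80 FPKM in control. The usual first exon (118116136 to 118116188) had 23.6 to 41.0 FPKM in the exposed libraries, against 42.1 in control.

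Splicing of the members could be read where an exon was both kept and skipped, or an intron both kept and removed, with at least 10 FPKM for the pair in every library. There were 30 skipping pairs in 19 genes and 23 retention pairs in 20 genes, and the share skipped or retained moved by under 5 percentage points over the 7 libraries in 25 and 17 of them. The share of pairs of all genes that moved by so little was not counted. Steady examples were the short exons of Rps24 and Rps12, printed here in full in capitals on the gene's strand from the GENCODE transcripts of GRCm38, since they show how small the alternative pieces are.
Rps24, chr14:24494052-24494069, plus strand: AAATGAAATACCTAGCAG
Rps24, chr14:24495430-24495449, plus strand: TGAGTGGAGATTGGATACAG
Rps12, chr10:23786625-23786639, minus strand: GAAACCTAGGAAAAG
The Rps24 exon of 18 bases and the Rps12 exon of 15 bases were skipped in nearly all FPKM of every library, and the Rps24 exon of 20 bases was kept in nearly all.

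A few events moved. The 86-base exon of Rpl13a (chromosome 7, 45126709 to 45126794) was skipped in 38.4% of the paired FPKM with chlorpyrifos and in 0.102% to 5.32% in the other exposed libraries, against 1.27% in control. The 56-base exon of Rps10 (chromosome 17, 27631200 to 27631255) was skipped in 31.0% with deltamethrin, 9.47% with chlorpyrifos and 6.70% with carbaryl, against 0.181% in control. Counted at 20 percentage points or more from control, that is 1 of 30 member pairs with chlorpyrifos (7.70% of all skipping pairs), 1 with deltamethrin (8.49%), and 0 with DDT (8.49%), rotenone (8.34%), carbaryl (8.80%) and imidacloprid (8.68%).

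Retention moved most in Rpl7a. The intron on chromosome 2 between 26912801 and 26912988 was retained in 29.5% with chlorpyrifos, 51.7% with DDT, 6.80% with rotenone, 49.9% with carbaryl, 32.3% with deltamethrin and 74.8% with imidacloprid, against 14.9% in control. A second spliced form of this intron, 26912793 to 26912988, was listed with carbaryl alone, at 70.3 FPKM. With both forms counted, the carbaryl share was 37.8%, and those of the other libraries were as given. Only rotenone, in which the Rpl7a level was also closest to control, was below control. Rpl21 (chromosome 5, 146834509 to 146834992) retained an intron in 34.0% with chlorpyrifos, 31.8% with carbaryl, 55.8% with deltamethrin and 28.6% with imidacloprid, and was listed at 0 for its retention with DDT, with rotenone and in control.

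Rps18 (chromosome 17, 33952312 to 33952403) retained an intron in 21.8% with deltamethrin, 10.5% with DDT and 8.93% with rotenone, against 0.177% in control. Of 23 member pairs, 1 was 20 points or more from control with chlorpyrifos (5.06% of all retention pairs), 1 with DDT (5.15%), 0 with rotenone (6.34%), 3 with carbaryl (5.51%), 2 with deltamethrin (4.69%) and 2 with imidacloprid (5.88%). Of the carbaryl count, 2 are these overlapping introns of Rpl7a, whose shares moved in opposite directions: the second was retained in 60.7% with carbaryl, against 100% in control, where its spliced form was not listed. An intron of Rpl27a, in contrast, was retained in 17.6% to 24.0% in the exposed libraries, against 20.7% in control.

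**Figure D5:**
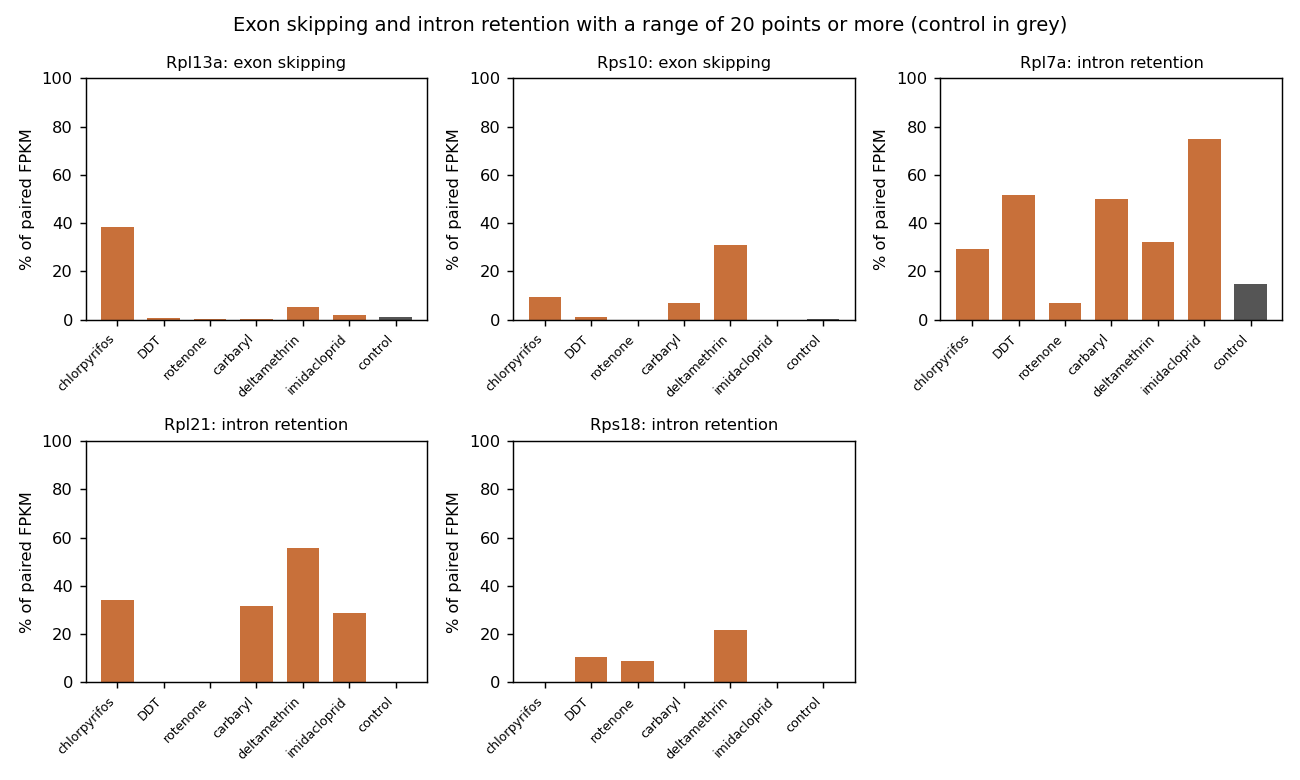
Share of the paired FPKM (percent, axis from 0 to 100) that skipped an exon in Rpl13a and Rps10 or retained an intron in Rpl7a, Rpl21 and Rps18, in each insecticide library and in control (grey, right). Rpl13a skipping is high with chlorpyrifos alone, at 38.4%, and Rpl7a retention is highest with imidacloprid, at 74.8%, with control at 14.9%.

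Genes that work with the members were read beside them. Among mitochondrial ribosomal proteins, which build the separate ribosome of mitochondria, 60 of 78 had agreeing ends, and 27, 28, 28, 19, 23 and 36 of them were above control from chlorpyrifos to imidacloprid. Their median log2 differences were -0.02, -0.03, -0.01, -0.06, -0.04 and 0.04. The member with the largest difference was Mrps24, at 47.4 FPKM with chlorpyrifos and at most 18.5 in the other exposed libraries, against 9.63 in control.

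Of the ribosome assembly genes 18 of 30 had agreeing ends, with 7, 10, 5, 5, 7 and 5 above control and medians of -0.03, 0.0099, -0.09, -0.04, -0.05 and -0.05. Eif6, which keeps the large subunit from joining too early, stood at 47.5, 36.9, 16.9, 37.2, 36.7 and 21.6 FPKM, against 55.7 in control. Its lowest values were those of rotenone (log2 difference -1.67) and imidacloprid (-1.33). Nop58, a core protein of box C/D snoRNA particles, was highest with chlorpyrifos, at 44.8 FPKM (1.09), and had 14.0 to 33.8 FPKM in the other exposed libraries, against 20.5 in control. The guide-RNA protein Gar1 was low with chlorpyrifos alone, at 11.7 FPKM, against 26.9 in control.

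Translation factors and other genes with TOP mRNAs had 10 of 18 members with agreeing ends, of which 6, 7, 2, 1, 3 and 8 were above control, with medians of 0.05, 0.03, -0.04, -0.03, -0.04 and 0.04. Eif4b, a cofactor of the eIF4A helicase, had 24.4 FPKM with chlorpyrifos and 85.1 to 92.9 in the other exposed libraries, against 89.4 in control. With rotenone, then, 42 of 54 ribosomal protein genes and 2 of 10 of these genes were above control, and this contrast was not tested. Of the mTORC1 and TOP regulators, 8 of 13 had agreeing ends, with 6, 5, 2, 6, 4 and 5 above control and medians of 0.10, 0.01, -0.04, 0.04, -0.0087 and 0.03. Single regulators ranged from -0.32 to 0.52 on the log2 scale with deltamethrin and from -0.23 to 0.45 with DDT. Larp1 had 38.9 to 43.9 FPKM in the exposed libraries, against 39.7 in control, and Mtor 9.63 to 12.3 FPKM, against 11.9 in control.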

How the data were processed

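RNA-seq of 7 cultures, 1 library per group, was analysed. Per the submitters' processing notes, the tools named are HISAT2 2.0.1, cutadapt 1.9.1 and bcl2fastq 2.17.1.14, with the build GRCm38. Which tool computed FPKM is not given there or in the labels. Per the file headers, the authors list FPKM per transcript-structure event (start, end, skipped exon, retained intron), and no library is listed with read counts, so depth is unknown and no interval is given. Repeated lines were dropped, between 1973 and 2078 per library.

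Start and end events were matched to GENCODE M21 by where the first exon ends or the last exon begins, which gave exactly 1 gene for 96.9% of start FPKM and 96.8% of end FPKM. This choice was made with the data in view, because the deposited identifiers were found to name other genes. Transcripts without introns could not be matched, and events matching more than 1 gene were left out of the totals. Log2 differences used a pseudocount of 1 FPKM. Skipping and retention are shares of the FPKM of paired events. The members and gene lists were chosen with earlier results of these data known. Named members are those at 1.5-fold or more in a comparison, the 3 largest differences per comparison, the 5 highest and 5 lowest levels, the stalk, the paralogs, Rpsa and the MDM2 binders. Members without agreeing ends, and others singled out, were named after their values were seen. Some members are not reported here. The steps were run in Python 3.11.15 with pandas 2.3.3 and numpy 2.4.6. Gene totals, the filter and log2 differences were checked on noise-free copies of the control library with known folds, without that pseudocount. Splicing shares, sequence windows and library sums were not checked in this way. Alternatives covered the ends used, filters, pseudocount, reference and assignment.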

Additional observations from a re-analysis of the deposited data

How the results depend on the processing

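The 138 recomputed sums and medians moved by at most 0.1 on the log2 scale, a tolerance larger than any of the medians themselves. Across the alternatives the member median lay between 0.03 and 0.07 with chlorpyrifos, 0.07 and 0.11 with DDT, 0.03 and 0.07 with rotenone, -0.04 and 0.0071 with carbaryl, -0.06 and 0.0082 with deltamethrin, and -0.01 and 0.03 with imidacloprid. The sign of the last 3 therefore depends on the setting. The sign of their summed start and end FPKM, as log2 ratios, did so too. The deltamethrin start sum, for example, ran from -0.08 to 0.03 and the carbaryl end sum from -0.06 to 0.04.

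Counts of members at 2-fold or more depended on how a gene's level was formed. From start totals alone the counts were 3 with chlorpyrifos, 1 with DDT, 4 with rotenone, 1 with deltamethrin and 2 with imidacloprid, and from end totals alone 6, 5, 5, 5 (carbaryl), 5 (deltamethrin) and 3 (imidacloprid). The start counts are of 79 members, with 4.15% to 4.38% of all genes at 2-fold, and the end counts of 71 members, with 4.06% to 4.86%. Members at 2-fold were thus 1.27% to 5.06% from starts, above the share of all genes with rotenone alone, and 4.23% to 8.45% from ends, above it in all but imidacloprid. With agreement of the ends relaxed to 1, or not asked for (2.07% to 2.78% of all genes), 1 member passed with chlorpyrifos (Rps15a) and 3 with rotenone (Rps15a and Rps4x among them). With the deposited identifier 1 passed with rotenone (Rps4x) and 0 with imidacloprid. With the larger total of each member, an alternative added after the data were seen, 1 passed with chlorpyrifos, 2 with rotenone and 0 with imidacloprid. The cause was not tested. Rpl23 with carbaryl passed under every alternative run.

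Of 1572 recomputed differences of 22 named members, 57 moved by more than 0.1, of which 38 were against the median of the other libraries. The sign was followed only for 2-fold values, which were Rpl23 with carbaryl and Rpl19 with imidacloprid, and 0 reversed. Smaller differences did change sign. Against the median of the other libraries, Rpl34 with DDT went from 0.35 to -0.15. With rotenone, Rpl27 went from 0.02 to -0.45 and Rpl7a from -0.06 to 0.31. No paired analysis was possible because each group has 1 library. With 1 library per group, neither an insecticide nor any library difference can be told apart from variation between cultures, and the depth behind each value is unknown.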
